A study of Mus musculus with 6 samples.

Results

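The genes described here encode the folding machinery of the endoplasmic reticulum (ER) and the unfolded protein response that adjusts it. They comprise 35 listed genes in 7 roles: BiP and GRP94 with their partners, J-protein co-chaperones of BiP, lectin chaperones, protein disulfide isomerases, ER-associated degradation, stress sensors with Xbp1, and the protein translocon. Members were taken from the array's annotation wherever a probe set named a single gene symbol from that list, and the probe set of highest mean signal stood for its gene. This gave 34 genes of the 18193 genes with such a probe set. The remaining one, Sec61g, shares its probe set with other symbols and was not analysed here. All 34 passed the filter on low signal.

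Heart RNA was measured on 6 Affymetrix mouse arrays, 2 in each of 3 groups of male mice aged 2 months. In RKIP-transgenic mice a transgene for RKIP (Raf kinase inhibitor protein, encoded by Pebp1) was driven by the alpha-MHC promoter, which is active in heart muscle cells. GRK-Inh-transgenic mice expressed in the myocardium a peptide that inhibits G-protein-coupled receptor kinases, and wild-type B6 mice were the controls. The B6 strain background is given for all 3 groups, and each transgene is represented by a single mouse line. No label states that the 2 arrays of a group are separate animals; the p-values then reflect the spread between these samples alone, and that spread may be technical.

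Secreted and membrane proteins enter the ER through the translocon and fold there with the help of BiP, GRP94, the lectin chaperones and the disulfide isomerases, while chains that fail to fold are exported and degraded. When unfolded chains accumulate, the membrane sensors IRE1, PERK and ATF6 signal to the nucleus: IRE1 splices the messenger of the transcription factor XBP1, ATF6 is cleaved into a transcription factor, and PERK slows translation. In heart muscle the ER is continuous with the calcium-storing sarcoplasmic reticulum, and several of these chaperones bind calcium.

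Signals are the authors' scaled linear values, and array medians lay between 50.3 and 55.0. The actin control probe sets, 3' over 5', gave ratios of 2.92 to 3.03 on transgenic arrays and of 3.11 and 3.25 on the control arrays. Pebp1 gave 9102 and 9140.4 in RKIP-transgenic, 9079 and 9296 in GRK-Inh-transgenic and 9292 and 8766 in control hearts and was not called in RKIP-transgenic against control hearts (log2 fold change 0.02 ± 0.041, SE; limma adjusted p = 0.866). The arrays therefore gave no check of the RKIP label, and whether this probe set can detect the transgene is not known from the sources used here. All 9 tested heart muscle markers were well detected, and their summed signal was 247279 to 261677 on all arrays. All differences below are log2 fold changes on the scale log2(signal + 50), with the SE of the limma model. A gene is said to have risen or fallen where its Benjamini-Hochberg adjusted p over 11254 tested genes was under 0.05.

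Much of the ER folding machinery was higher in GRK-Inh-transgenic than in control hearts: 17 of 34 members rose and 1, Dnajc10, fell. Over all tested genes 13.1% were called in that comparison, 5.86% higher and 7.27% lower. Manf (1.29 ± 0.065), Creld2 (1.14 ± 0.095) and Sdf2l1 (0.96 ± 0.141) had the largest rises among the members. The median log2 fold change of the members was 0.29, against -0.03 over all genes tested. Both GRK-Inh-transgenic arrays lay above both control arrays for 23 of 34 members (23.8% of all tested genes) and below both for 3 (33.1% of all tested genes).

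The RKIP-transgenic hearts showed a smaller set of changes against the same controls: 8 members rose and 1, Pdia4, fell. The background there was 10.8% of tested genes called, 5.32% higher and 5.51% lower. Members that rose were Manf, Atf6, Dnajb9, Creld2, Dnajc3, Xbp1, Derl2 and Hspa5, from 0.65 ± 0.065 for Manf down to 0.19 ± 0.033 for Hspa5. The members' median was 0.07, against -0.02 over all genes. Without overlap of the arrays, 19 members were higher (24.2% of all tested genes) and 4 lower (29.2% of all tested genes). Both comparisons use the same 2 control arrays, so a deviation of those arrays enters both.

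The difference between the lines was tested directly, without the control arrays in the contrast. In RKIP-transgenic relative to GRK-Inh-transgenic hearts, 14 of 34 members were lower and 0 were higher, where 8.82% of all tested genes were called, 4.35% lower and 4.47% higher. At an unadjusted p under 0.05 the limma counts were 16 lower and 4 higher. No share of all tested genes was determined at that unadjusted threshold, here or for the unadjusted counts below. The median was -0.16 for the members and 0.02 over all genes. Arrays did not overlap for 19 members lower (23.2% of all tested genes) and 7 higher (29.7% of all tested genes). Of the 9 members that rose in GRK-Inh-transgenic and not in RKIP-transgenic hearts against control, 8 were lower in RKIP-transgenic relative to GRK-Inh-transgenic hearts. That count follows in part from how the 9 were chosen, since the arrays of both lines enter the choice and the contrast. Of the 8 that rose in both lines, 5 also differed between the lines, all lower in RKIP-transgenic hearts. In all, 19 members were called in at least 1 comparison and 15 in none, and the matching share of all tested genes was not determined.

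Some of these calls rest on the variance model or on the choice of probe set. Without a variance trend 7 calls in GRK-Inh-transgenic hearts ended (Dnajc10, Canx, Uggt1, Pdia3, Pdia4, Derl2 and Atf6), as did 6 in RKIP-transgenic hearts (Hspa5, Creld2, Dnajc3, Pdia4, Derl2 and Xbp1) and 10 between the lines. The 4 kept between the lines were Manf, Creld2, Sdf2l1 and Pdia4. With the mean of all probe sets of a gene, calls of Dnajc10, Uggt1, Pdia4, Pdia6 and Derl2 in GRK-Inh-transgenic hearts ended. In RKIP-transgenic hearts those of Hspa5, Dnajc3, Pdia4, Derl2 and Xbp1 ended. Between the lines those of Pdia3, Pdia4, Pdia6, Syvn1 and Sec61a1 ended, that of Sec61a1 with a change of sign. Under the same rule Herpud1 was newly called higher in RKIP-transgenic hearts, and Calr newly called lower in RKIP-transgenic relative to GRK-Inh-transgenic hearts.

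**Figure D1:**
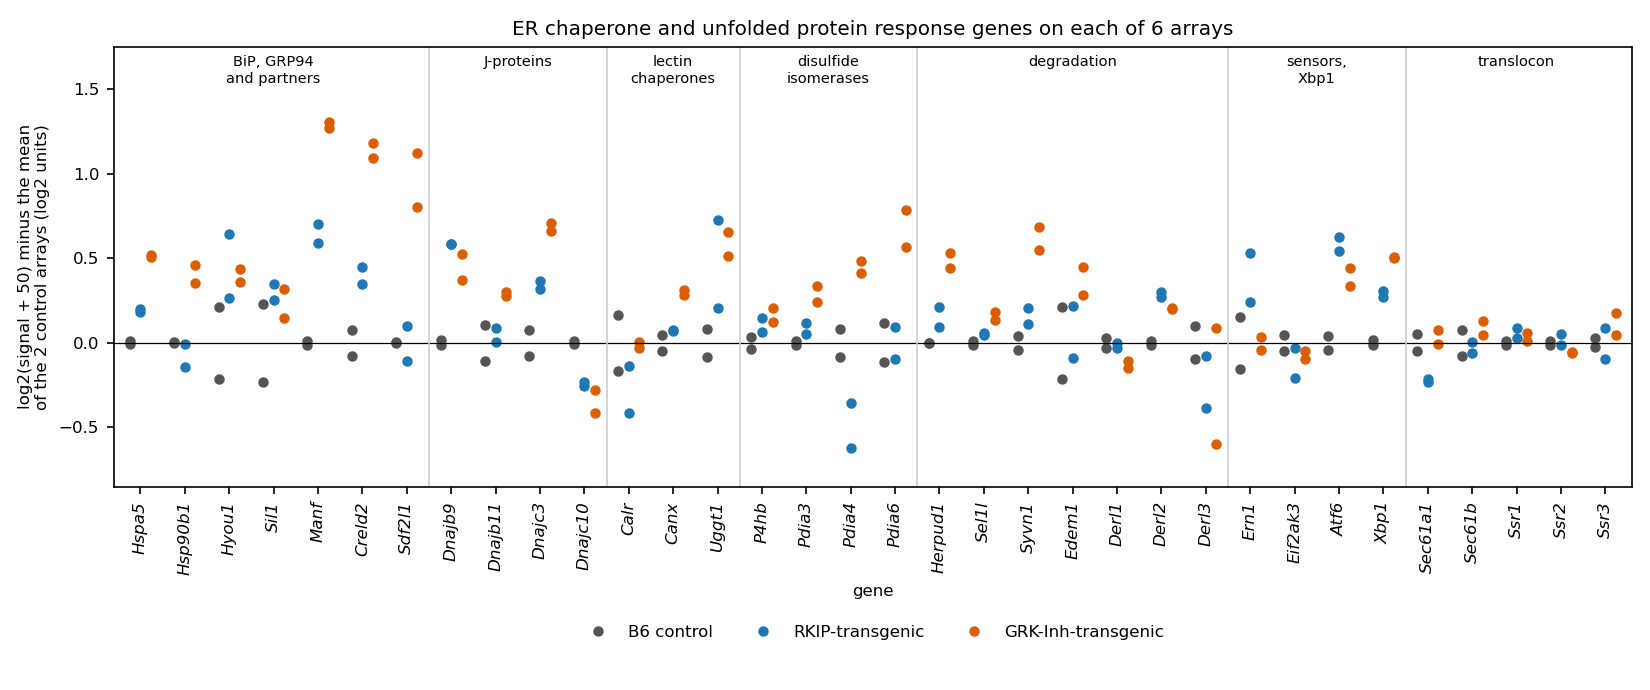
Each point is 1 array; the y axis gives log2(signal + 50) minus the mean of the 2 control arrays for 34 genes (x axis) ordered by role, with B6 control in grey, RKIP-transgenic in blue and GRK-Inh-transgenic in orange. For Manf and Creld2 the orange points lie above the blue points and the blue above the grey, while for Dnajb9 and Atf6 the blue points are the highest; of the translocon genes at the right, the blue points of Sec61a1 lie lowest.

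**Figure D2:**
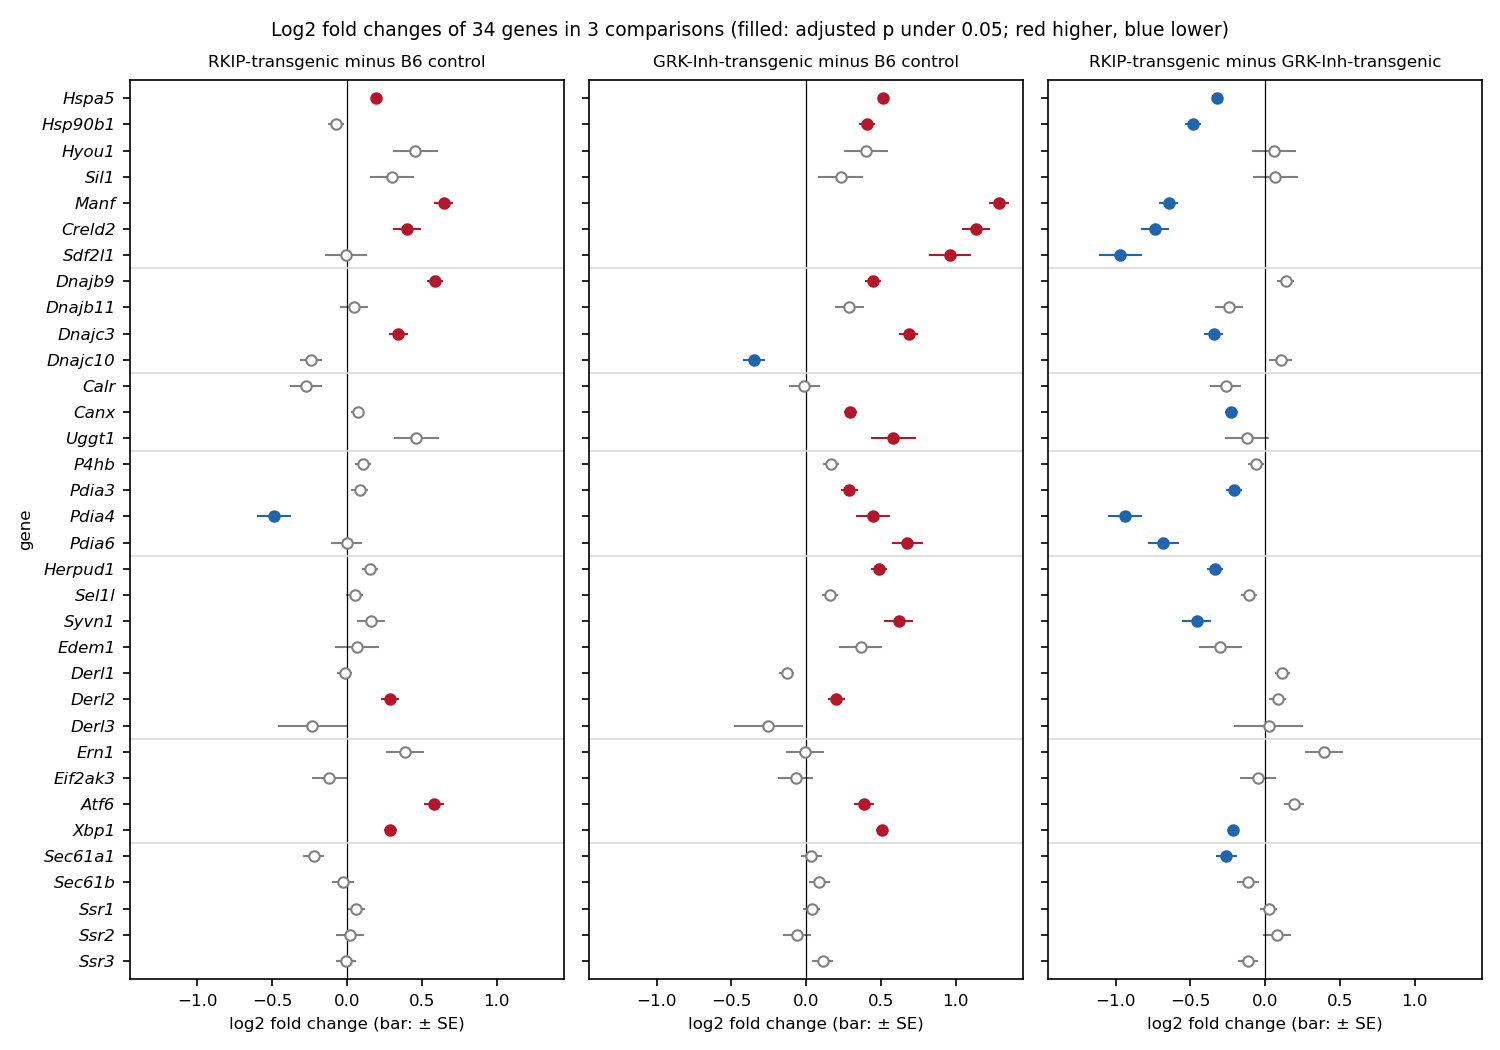
Log2 fold changes (x axis, bars ± SE) of the 34 genes (y axis, in the same order) in the 3 comparisons; filled points had a limma adjusted p under 0.05, red for higher and blue for lower. The middle panel holds 17 red points and 1 blue, the left panel 8 red and 1 blue, and the right panel 14 blue and no red point.

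Markers of other cell types, and 1 heart muscle marker, also differed between the groups. Of 9 heart muscle markers, Actc1 fell in RKIP-transgenic hearts (-0.12 ± 0.031, adjusted p = 0.0326) and none was called in GRK-Inh-transgenic hearts, where 2 were lower at an unadjusted limma p under 0.05. Of 10 fibroblast markers, 8 fell in GRK-Inh-transgenic and 7 in RKIP-transgenic hearts against control. Their summed signal was 35942 to 36381, 38468 to 38661 and, in control hearts, 51310 to 54054. Smooth muscle and pericyte markers fell in 3 of 7 and 5 of 7 cases, and their sum was 23913 to 24239 in GRK-Inh-transgenic, 23330.2 to 23357 in RKIP-transgenic and 27967 to 28742 in control hearts. Endothelial markers fell in 3 of 9 cases in each line, with sums of 25417 to 25870.0, 24236 to 25053 and 28411 to 29379. Fabp4 made up most of these sums, with 18997 and 19522 in GRK-Inh-transgenic hearts. There 3 of the 9 endothelial markers had a positive difference and none of these was called. The largest were Pecam1 (0.29 ± 0.098, limma adjusted p = 0.0829) and Kdr (0.22 ± 0.070, adjusted p = 0.0593). Macrophage markers fell in 3 of 8 and 1 of 8 cases, with sums of 10336 to 10422, 11563 to 11921 and 12118 to 12563. B cell and plasma cell markers, the latter of a cell type rich in ER chaperones, moved with the GRK-Inh-transgenic group: 2 of 5 tested rose (Ighm and Jchain), and the sum over 9 markers was 1555 to 1579 there, 463 to 582 in RKIP-transgenic and 548 to 639.9 in control hearts. Ighm alone gave 848 and 837 in GRK-Inh-transgenic and 188 and 156 in control hearts. It fell in RKIP-transgenic hearts (-0.51 ± 0.117, adjusted p = 0.0192). Ms4a1 (0.55 ± 0.198), Mzb1 (0.21 ± 0.247) and Sdc1 (0.16 ± 0.159) were not called in GRK-Inh-transgenic hearts. None of those 9 markers was listed at 0, and 3 of them (Cd79a, Tnfrsf17 and Pou2af1) lay below the filter signal of 50.2 on every array. Of 3 tested white adipocyte markers 2 fell in RKIP-transgenic hearts, and the list summed to 1182 to 1239 in RKIP-transgenic hearts, 3615 to 4229 in GRK-Inh-transgenic hearts and 3660 to 3832 in controls. In whole hearts fewer cells of a type and less RNA per cell cannot be told apart, and the part of these cell types in the ER results was not tested.

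Promoter sequences are shown because many members share a known regulatory element, the ER stress response element (ERSE), which is bound by ATF6 and XBP1 together with NF-Y. RefSeq windows of GRCm38.p6, from 250 bases before to 50 after each annotated start, were held for 27 members and searched on both strands for the ERSE (CCAAT, 9 bases of any kind, CCACG), for ERSE-II (ATTGG, 1 base of any kind, CCACG) and for the UPR element (TGACGTG), none of which overlapped another in these windows. No window was held for Manf, Atf6, Hyou1, Sil1, Derl1, Sec61a1 and Ssr2, so their promoters were not searched. The ERSE was found in 9 members (Calr, Canx, Creld2, Derl3, Dnajc3, Hsp90b1, Hspa5, Pdia6 and Syvn1) and in 0.119% of all 32851 windows. ERSE-II occurred in Dnajb11 and Herpud1 (0.0365% of windows) and the UPR element in Hspa5 (2.01% of windows). Of the 9 members with an ERSE, 7 rose in GRK-Inh-transgenic hearts and 3 in RKIP-transgenic hearts against control, and 7 were lower in RKIP-transgenic relative to GRK-Inh-transgenic hearts. Calr and Derl3, the latter with low signals of 48.7 to 110, were the members with an ERSE that were called in no comparison. Among the 16 members whose window held neither ERSE nor ERSE-II, 7 rose and 1 fell in GRK-Inh-transgenic hearts, so rises were not limited to promoters with these letters. The lines below give the stretch around each of 12 matches, on the gene's own strand, 5′ to 3′, with the element in capitals. Every member with a match is shown except Dnajb11. An element read on the opposite strand appears as CGTGG before ATTGG. They show how the same letters recur at different distances in genes of different roles.
Hspa5 ERSE, chr2:34771995-34772073, plus strand: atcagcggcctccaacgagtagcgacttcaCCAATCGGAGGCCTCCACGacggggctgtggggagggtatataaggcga
Hspa5 UPR element, chr2:34771903-34771969, plus strand: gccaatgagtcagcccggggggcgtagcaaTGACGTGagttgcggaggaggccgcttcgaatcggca
Hsp90b1 distal ERSE, chr10:86705608-86705686, minus strand: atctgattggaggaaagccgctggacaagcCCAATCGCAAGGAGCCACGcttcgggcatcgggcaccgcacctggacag
Hsp90b1 proximal ERSE, chr10:86705503-86705581, minus strand: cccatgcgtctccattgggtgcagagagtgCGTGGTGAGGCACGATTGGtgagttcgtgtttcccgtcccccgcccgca
Creld2 ERSE, chr15:88819490-88819568, plus strand: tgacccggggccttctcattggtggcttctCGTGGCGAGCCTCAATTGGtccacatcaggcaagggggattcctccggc
Dnajc3 ERSE, chr14:118937797-118937875, plus strand: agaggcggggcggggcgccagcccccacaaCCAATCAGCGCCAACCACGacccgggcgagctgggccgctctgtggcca
Canx ERSE, chr11:50325770-50325848, minus strand: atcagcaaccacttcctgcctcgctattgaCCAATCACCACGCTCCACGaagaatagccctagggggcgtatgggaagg
Pdia6 ERSE, chr12:17266461-17266539, plus strand: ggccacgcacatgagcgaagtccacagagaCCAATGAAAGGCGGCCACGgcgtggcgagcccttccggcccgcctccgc
Syvn1 ERSE, chr19:6046502-6046575, plus strand: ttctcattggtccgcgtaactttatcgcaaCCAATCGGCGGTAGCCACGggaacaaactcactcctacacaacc
Herpud1 ERSE-II, chr8:94386347-94386417, plus strand: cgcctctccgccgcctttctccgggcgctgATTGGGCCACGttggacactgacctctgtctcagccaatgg
Calr ERSE, chr8:84847045-84847123, minus strand: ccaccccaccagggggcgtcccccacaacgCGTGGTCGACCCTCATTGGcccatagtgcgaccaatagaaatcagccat
Derl3 ERSE, chr10:75893212-75893290, plus strand: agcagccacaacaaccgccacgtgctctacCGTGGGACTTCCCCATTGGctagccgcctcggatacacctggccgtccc

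The ERSE nearest to an annotated start was that of Syvn1, 26 to 44 bases upstream, followed by Hspa5 at 47 to 65 bases. The farthest was the distal element of Hsp90b1, 194 to 212 bases upstream, and Hsp90b1 was the only member with 2 ERSE matches among those shown. Canx lay at 127 to 145 bases and Creld2 at 108 to 126 bases. A match in these letters is a description of the window and not evidence of binding.

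Of BiP, GRP94 and their partners, 5 of 7 rose in GRK-Inh-transgenic hearts. In RKIP-transgenic hearts 3 of the 7 rose, and 5 were lower than in GRK-Inh-transgenic hearts. Hspa5 encodes BiP, the ER Hsp70 that binds nascent chains and holds the stress sensors inactive, and its promoter carries both the ERSE and the UPR element shown above. Its signals were 19029 and 19192 in GRK-Inh-transgenic, 15355 and 15137 in RKIP-transgenic and 13446 and 13266 in control hearts. The 3 groups did not overlap, in that order from highest to lowest. Hspa5 rose by 0.52 ± 0.033 in GRK-Inh-transgenic hearts (adjusted p = 3.7e-06) and by 0.19 ± 0.033 in RKIP-transgenic hearts (adjusted p = 0.0044), and it was lower in RKIP-transgenic relative to GRK-Inh-transgenic hearts (-0.33 ± 0.033, adjusted p = 0.000159). The rise in RKIP-transgenic hearts was lost with the mean of all probe sets of a gene (adjusted p = 0.0657) and when variances were moderated without a trend (adjusted p = 0.172). Taken singly, the second brightest Hspa5 probe set was called higher in RKIP-transgenic hearts (0.26 ± 0.041, limma adjusted p = 0.00385). The dimmest was not called there (-0.07 ± 0.062, adjusted p = 0.577).

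Hsp90b1 encodes GRP94, the ER Hsp90, which folds integrins and Toll-like receptors. It gave 7617 and 8202 in GRK-Inh-transgenic, 5388 and 5921 in RKIP-transgenic and 5969 and 5944 in control hearts. On this probe set only the GRK-Inh-transgenic arrays stood above the rest. The gene rose in GRK-Inh-transgenic hearts (0.41 ± 0.054, adjusted p = 0.000645), was not called in RKIP-transgenic hearts (-0.08 ± 0.054, adjusted p = 0.424) and was lower in the latter than in the former (-0.48 ± 0.054, adjusted p = 0.000344). A dimmer Hsp90b1 probe set gave 4559 and 4742 in RKIP-transgenic and 3790 and 4447 in control hearts. It read 0.18 ± 0.070 there, also not called (limma adjusted p = 0.162). In GRK-Inh-transgenic hearts it read 0.72 ± 0.070 and between the lines -0.54 ± 0.070, both called.

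Manf, an ER-resident secreted factor that binds BiP, showed the largest rise of all members in both lines. Its signals were 2187 and 2130.4 in GRK-Inh-transgenic, 1309 and 1419.6 in RKIP-transgenic and 860.2 and 847 in control hearts. These values form 3 separate levels. The gene rose by 1.29 ± 0.065 in GRK-Inh-transgenic hearts (adjusted p = 6.3e-07) and by 0.65 ± 0.065 in RKIP-transgenic hearts (adjusted p = 0.000131), with a difference between the lines of -0.64 ± 0.065 (adjusted p = 0.000153). All 3 calls were kept under each of 17 alternative fits. Manf has a single probe set, so the mean of all probe sets could not change its values.

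Creld2 encodes a secreted ER-stress-inducible protein with disulfide-handling motifs. Signals were 821 and 769.7 in GRK-Inh-transgenic, 440.3 and 476 in RKIP-transgenic and 356 and 315 in control hearts, again with no overlap among the 3 groups. It rose by 1.14 ± 0.095 in GRK-Inh-transgenic hearts (adjusted p = 2.7e-05) and by 0.40 ± 0.095 in RKIP-transgenic hearts (adjusted p = 0.0221). The latter call was lost without RKIP-transgenic replicate 1 (adjusted p = 0.0514), RKIP-transgenic replicate 2 (0.116) or B6 control replicate 2 (0.131). Between the lines the difference was -0.73 ± 0.095 (adjusted p = 0.000889).

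Sdf2l1 encodes an ER protein that works with BiP and its J-protein partner ERdj3. Its signals were 434 and 337 in GRK-Inh-transgenic, 156 and 188 in RKIP-transgenic and 172 and 173 in control hearts. The RKIP-transgenic arrays lay on either side of the controls, and both GRK-Inh-transgenic arrays were above all others. Sdf2l1 rose in GRK-Inh-transgenic hearts (0.96 ± 0.141, adjusted p = 0.00118), with -0.0046 ± 0.141 in RKIP-transgenic hearts (adjusted p = 0.991) and -0.97 ± 0.141 between the lines (adjusted p = 0.00188). Hyou1 (GRP170) and Sil1, both nucleotide exchange factors for BiP, were called in no comparison. Hyou1 had 0.40 ± 0.148 in GRK-Inh-transgenic (adjusted p = 0.103) and 0.46 ± 0.148 in RKIP-transgenic hearts (adjusted p = 0.0781). Its control arrays were at 534 and 386, a wider spread than the difference between the 2 GRK-Inh-transgenic arrays (598 and 634).

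J-proteins stimulate the ATPase of BiP, and 2 of the 4 rose in each line. Dnajb9 (ERdj4), which also represses the sensor IRE1, gave 4593 and 5109 in GRK-Inh-transgenic, 5329.9 and 5331 in RKIP-transgenic and 3499 and 3573 in control hearts. Here the RKIP-transgenic arrays were the highest, unlike for BiP. The gene rose by 0.59 ± 0.054 in RKIP-transgenic hearts (adjusted p = 7.2e-05) and by 0.45 ± 0.054 in GRK-Inh-transgenic hearts (adjusted p = 0.000334). The lines were not shown to differ (0.14 ± 0.054, adjusted p = 0.157).

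Dnajc3 (p58IPK), an inhibitor of PERK-family kinases that also acts as a BiP co-chaperone in the ER lumen, had 2482 and 2399 in GRK-Inh-transgenic, 1878 and 1949 in RKIP-transgenic and 1418 and 1584 in control hearts. The 3 groups were again separate and in the same order as for BiP. It rose by 0.69 ± 0.065 (adjusted p = 6.3e-05) and 0.34 ± 0.065 (adjusted p = 0.00735), and the difference between the lines was -0.34 ± 0.065 (adjusted p = 0.00851). The rise in RKIP-transgenic hearts was lost without B6 control replicate 1 (adjusted p = 0.0581), and the difference between the lines without RKIP-transgenic replicate 1 (0.0565) or GRK-Inh-transgenic replicate 1 (0.0647). With the mean of all Dnajc3 probe sets the rise in RKIP-transgenic hearts had an adjusted p of 0.274.

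Dnajc10 (ERdj5), a J-protein with disulfide reductase activity in degradation, was the member that fell in GRK-Inh-transgenic hearts, by 0.35 ± 0.074 on the log2 scale (adjusted p = 0.0106). That call was lost without GRK-Inh-transgenic replicate 2 (adjusted p = 0.0885), B6 control replicate 1 (0.0544) or B6 control replicate 2 (0.0647). In RKIP-transgenic hearts its difference was -0.24 ± 0.074 (adjusted p = 0.0627). Dnajb11 (ERdj3) was called nowhere, with 0.29 ± 0.094 in GRK-Inh-transgenic hearts (adjusted p = 0.0695) and 0.05 ± 0.094 in RKIP-transgenic hearts.

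Among the lectin chaperone genes 2 of 3 rose in GRK-Inh-transgenic hearts and 0 of 3 in RKIP-transgenic hearts, where at an unadjusted limma p under 0.05 the counts were 1 higher and 1 lower. Canx encodes calnexin, the membrane-bound lectin that retains glycoproteins for folding. It gave 7952 and 8114 in GRK-Inh-transgenic, 6879 and 6851 in RKIP-transgenic and 6742 and 6323 in control hearts. Canx rose in GRK-Inh-transgenic hearts (0.30 ± 0.043, adjusted p = 0.00117) and was lower in RKIP-transgenic relative to GRK-Inh-transgenic hearts (-0.22 ± 0.043, adjusted p = 0.00938). Leaving out RKIP-transgenic replicate 2 (adjusted p = 0.0533), GRK-Inh-transgenic replicate 1 (0.0506) or GRK-Inh-transgenic replicate 2 (0.0799) ended the latter call.

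Calr encodes calreticulin, the soluble calcium-binding counterpart of calnexin, and was called in no comparison although its promoter holds an ERSE. Its difference was -0.01 ± 0.104 in GRK-Inh-transgenic hearts (adjusted p = 0.957) and -0.27 ± 0.104 in RKIP-transgenic hearts (adjusted p = 0.127). The control arrays of this probe set stood at 4484 and 3559.8, a wide spread. Uggt1 encodes the glucosyltransferase that returns misfolded glycoproteins to the lectins. Its signals were 651 and 585 in GRK-Inh-transgenic, 463 and 686 in RKIP-transgenic and 369.9 and 422 in control hearts. Uggt1 rose in GRK-Inh-transgenic hearts (0.58 ± 0.148, adjusted p = 0.0252), and leaving out any 1 of the 4 GRK-Inh-transgenic and control arrays ended the call, with adjusted p from 0.058 to 0.167. It also ended with the mean of all Uggt1 probe sets (0.28, adjusted p = 0.148) and without a filter (0.077). That mean averages in a probe set with signals of 1.51 to 20.5. It also takes in another that read 0.05 ± 0.135 in GRK-Inh-transgenic hearts (limma adjusted p = 0.876). In RKIP-transgenic hearts Uggt1 had 0.46 ± 0.148 (adjusted p = 0.0752).

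Protein disulfide isomerases form and rearrange disulfide bonds, and 3 of 4 rose in GRK-Inh-transgenic hearts while 1 fell in RKIP-transgenic hearts and 3 were lower in RKIP-transgenic relative to GRK-Inh-transgenic hearts. Pdia4 (ERp72) was the only member called in opposite directions in the lines. Its signals were 622 and 588 in GRK-Inh-transgenic, 261 and 325 in RKIP-transgenic and 403 and 459 in control hearts, so the controls lay between the lines. Pdia4 rose in GRK-Inh-transgenic hearts (0.45 ± 0.114, adjusted p = 0.0258) and fell by 0.49 ± 0.114 on the log2 scale in RKIP-transgenic hearts (adjusted p = 0.0204). Both calls against control depended on the processing. With the mean of all probe sets of a gene they shrank to 0.21 (adjusted p = 0.389) and -0.09 (0.745), without a filter their adjusted p was 0.0631 and 0.0542, and without a variance trend 0.085 and 0.0944. The rise was lost on leaving out any 1 of the 4 arrays compared, with adjusted p of 0.136 and 0.0779 without GRK-Inh-transgenic replicate 1 and 2 and 0.164 and 0.0548 without B6 control replicate 1 and 2. The fall was lost without RKIP-transgenic replicate 1 (0.136), B6 control replicate 1 (0.0525) or B6 control replicate 2 (0.145). The difference of Pdia4 between the lines was -0.94 ± 0.114 (adjusted p = 0.00063), and it was kept without each array in turn, with -0.30 (adjusted p = 0.243) for the mean of all probe sets of a gene.

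Pdia6 (P5), which also limits the activity of IRE1, gave 1621 and 1385 in GRK-Inh-transgenic, 982 and 855 in RKIP-transgenic and 998 and 844 in control hearts. Its RKIP-transgenic arrays lay within the range of the controls, and both GRK-Inh-transgenic arrays were higher. Pdia6 rose in GRK-Inh-transgenic hearts (0.68 ± 0.103, adjusted p = 0.00146), with -0.0023 ± 0.103 in RKIP-transgenic hearts (adjusted p = 0.994) and -0.68 ± 0.103 between the lines (adjusted p = 0.00235). Both calls of Pdia6 were lost with the mean of all probe sets of a gene (adjusted p = 0.486 and 0.774), which averages in a probe set with signals of 3.24 to 37.8. Pdia3 (ERp57), the partner of the lectin chaperones, rose in GRK-Inh-transgenic hearts by 0.29 ± 0.054 (adjusted p = 0.00513). Without GRK-Inh-transgenic replicate 2 it no longer passed (adjusted p = 0.0562). Between the lines Pdia3 had -0.21 ± 0.054 (adjusted p = 0.0418), and leaving out any 1 of the 6 arrays ended that call, with adjusted p from 0.0565 to 0.244. P4hb (PDI itself) was called nowhere, at 0.17 ± 0.055 in GRK-Inh-transgenic (adjusted p = 0.0708) and 0.11 ± 0.055 in RKIP-transgenic hearts.

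ER-associated degradation extracts misfolded chains to the proteasome, and 3 of its 7 members rose in GRK-Inh-transgenic and 1 in RKIP-transgenic hearts. Syvn1 encodes HRD1, the ubiquitin ligase at the core of this pathway. It had 619 and 559 in GRK-Inh-transgenic, 429.9 and 399.5 in RKIP-transgenic and 378 and 354 in control hearts. The groups did not overlap, with GRK-Inh-transgenic arrays well above the rest. Syvn1 rose in GRK-Inh-transgenic hearts (0.62 ± 0.097, adjusted p = 0.00178), was not called in RKIP-transgenic hearts (0.16 ± 0.097, adjusted p = 0.342) and differed between the lines by -0.46 ± 0.097 (adjusted p = 0.0149). The last call was lost without RKIP-transgenic replicate 2 (adjusted p = 0.0883) or GRK-Inh-transgenic replicate 1 (0.117).

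Herpud1, a stress-inducible membrane scaffold of the HRD1 complex with an ERSE-II in its promoter, gave 5388 and 5052 in GRK-Inh-transgenic, 4299.9 and 3967 in RKIP-transgenic and 3714 and 3704 in control hearts. It rose in GRK-Inh-transgenic hearts (0.49 ± 0.053, adjusted p = 0.000172) and was lower in RKIP-transgenic relative to GRK-Inh-transgenic hearts (-0.33 ± 0.053, adjusted p = 0.00345). Against control its RKIP-transgenic value of 0.15 ± 0.053 was not called (adjusted p = 0.0992). Derl2, a derlin of the retrotranslocation machinery, rose by 0.29 ± 0.058 in RKIP-transgenic hearts (adjusted p = 0.0103) and by 0.20 ± 0.058 in GRK-Inh-transgenic hearts (adjusted p = 0.0432). The former was lost without RKIP-transgenic replicate 2 (adjusted p = 0.0622) or B6 control replicate 2 (0.0602), and the latter on leaving out any 1 of the 6 arrays (0.0581 to 0.157). For the mean of all probe sets of a gene Derl2 had 0.16 (adjusted p = 0.274) and 0.06 (0.67), and without a variance trend the adjusted p was 0.088 and 0.133. The GRK-Inh-transgenic call also ended under quantile normalization (0.0756), without a filter (0.0527), with only the arrays of the 2 groups (0.0594) and with a replicate block. Sel1l, the adaptor of HRD1, and Edem1, a mannosidase-like lectin, were not called, at 0.16 ± 0.056 and 0.36 ± 0.146 in GRK-Inh-transgenic hearts. The derlins Derl1 and Derl3 were not called either, at -0.13 ± 0.050 and -0.25 ± 0.231. Derl3 signals were low, 48.7 to 110 over all arrays, beside the filter signal of 50.2.

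Of the 3 sensors and Xbp1, Atf6 and Xbp1 rose in both lines, and Ern1 and Eif2ak3 were called in no comparison. Atf6 encodes the sensor that is itself a precursor of a transcription factor. Its signals were 1934 and 1817 in RKIP-transgenic, 1695 and 1567 in GRK-Inh-transgenic and 1270.3 and 1198 in control hearts. On this probe set the RKIP-transgenic arrays were the highest, as for Dnajb9. Dimmer Atf6 probe sets did not show that order. They gave -0.05 ± 0.093 and -0.15 ± 0.134 in RKIP-transgenic relative to GRK-Inh-transgenic hearts, neither of them called. Atf6 rose by 0.58 ± 0.067 in RKIP-transgenic (adjusted p = 0.000313) and by 0.39 ± 0.067 in GRK-Inh-transgenic hearts (adjusted p = 0.00308), and the lines were not shown to differ (0.20 ± 0.067, adjusted p = 0.103).

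Ern1, which encodes IRE1, gave 518 and 644 in RKIP-transgenic, 415 and 442 in GRK-Inh-transgenic and 381 and 484 in control hearts. Its GRK-Inh-transgenic arrays lay within the range of the controls. Ern1 had 0.39 ± 0.127 in RKIP-transgenic (adjusted p = 0.0827) and -0.0042 ± 0.127 in GRK-Inh-transgenic hearts (adjusted p = 0.988). Eif2ak3, which encodes PERK, gave 257 and 222 in RKIP-transgenic, 244 and 254 in GRK-Inh-transgenic and 274 and 253 in control hearts. All 3 groups overlapped, and no difference was called (-0.12 ± 0.118 and -0.07 ± 0.118 against control, adjusted p = 0.591 and 0.753).

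Xbp1 encodes the transcription factor whose messenger IRE1 splices; its probe sets measured the whole transcript level here, and splicing was not analysed. The signals were 6717 and 6737 in GRK-Inh-transgenic, 5717 and 5848 in RKIP-transgenic and 4668 and 4771 in control hearts, 3 levels without overlap. Xbp1 rose by 0.51 ± 0.041 (adjusted p = 2.1e-05) and 0.29 ± 0.041 (adjusted p = 0.00132), and RKIP-transgenic hearts were lower than GRK-Inh-transgenic hearts by -0.22 ± 0.041 (adjusted p = 0.0088). The rise in RKIP-transgenic hearts was lost with the mean of all Xbp1 probe sets (0.12, adjusted p = 0.287) and without a variance trend (0.0873). The difference between the lines was lost without RKIP-transgenic replicate 1 (adjusted p = 0.0653), GRK-Inh-transgenic replicate 1 (0.0604) or GRK-Inh-transgenic replicate 2 (0.0665).

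The translocon threads new chains into the ER. Of its 5 tested members, 0 were called against control in either line, and 0 in GRK-Inh-transgenic and 1 in RKIP-transgenic hearts (Sec61a1) had an unadjusted limma p under 0.05. Sec61a1 encodes the channel subunit of the translocon. It gave 957 and 970.1 in RKIP-transgenic, 1199 and 1127 in GRK-Inh-transgenic and 1176 and 1092 in control hearts, and it was lower in RKIP-transgenic relative to GRK-Inh-transgenic hearts (-0.26 ± 0.070, adjusted p = 0.0457). That call ended on leaving out any 1 of the 6 arrays (adjusted p = 0.0533 to 0.234), and the value turned to 0.01 with the mean of all probe sets of a gene. Sec61b and the translocon-associated Ssr1, Ssr2 and Ssr3 were called nowhere, with differences between -0.12 and 0.11 over the 3 comparisons. Whether translocon and chaperone genes differ as groups was not tested.

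Several probe sets report the same transcript and give a second reading of 21 members, from the same RNA. For the 11 of them called in GRK-Inh-transgenic hearts in a fit over all 19771 tested probe sets with a single symbol, the 20 other probe sets all had the same sign and 13 were also called. In RKIP-transgenic hearts 5 members were called, and 9 of their 12 other probe sets had the same sign, of which 4 were called. In RKIP-transgenic against GRK-Inh-transgenic hearts all 14 other probe sets of 7 called members had the same sign, and 9 were called. No other probe set of a called member was called in the opposite direction. For Atf6 the other probe sets gave 0.68 ± 0.093 and 0.65 ± 0.134 in GRK-Inh-transgenic and 0.63 ± 0.093 and 0.50 ± 0.134 in RKIP-transgenic hearts, all called. The difference between probe sets was large for Dnajc3, where the second brightest read 0.04 ± 0.061 in RKIP-transgenic hearts (adjusted p = 0.771) and 0.58 ± 0.061 in GRK-Inh-transgenic hearts (adjusted p = 0.000201). Herpud1's second probe set was called in RKIP-transgenic hearts (0.40 ± 0.054, adjusted p = 0.00152), unlike its brighter one. One Hspa5 probe set read 0.03 ± 0.062 in GRK-Inh-transgenic hearts and was not called. For Calr both dimmer probe sets were called lower in RKIP-transgenic relative to GRK-Inh-transgenic hearts (-0.31 ± 0.061 and -0.35 ± 0.063), and for Derl1 a dimmer one was called higher in GRK-Inh-transgenic hearts (0.28 ± 0.073, adjusted p = 0.0322) while its brightest was not called.

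**Figure D3:**
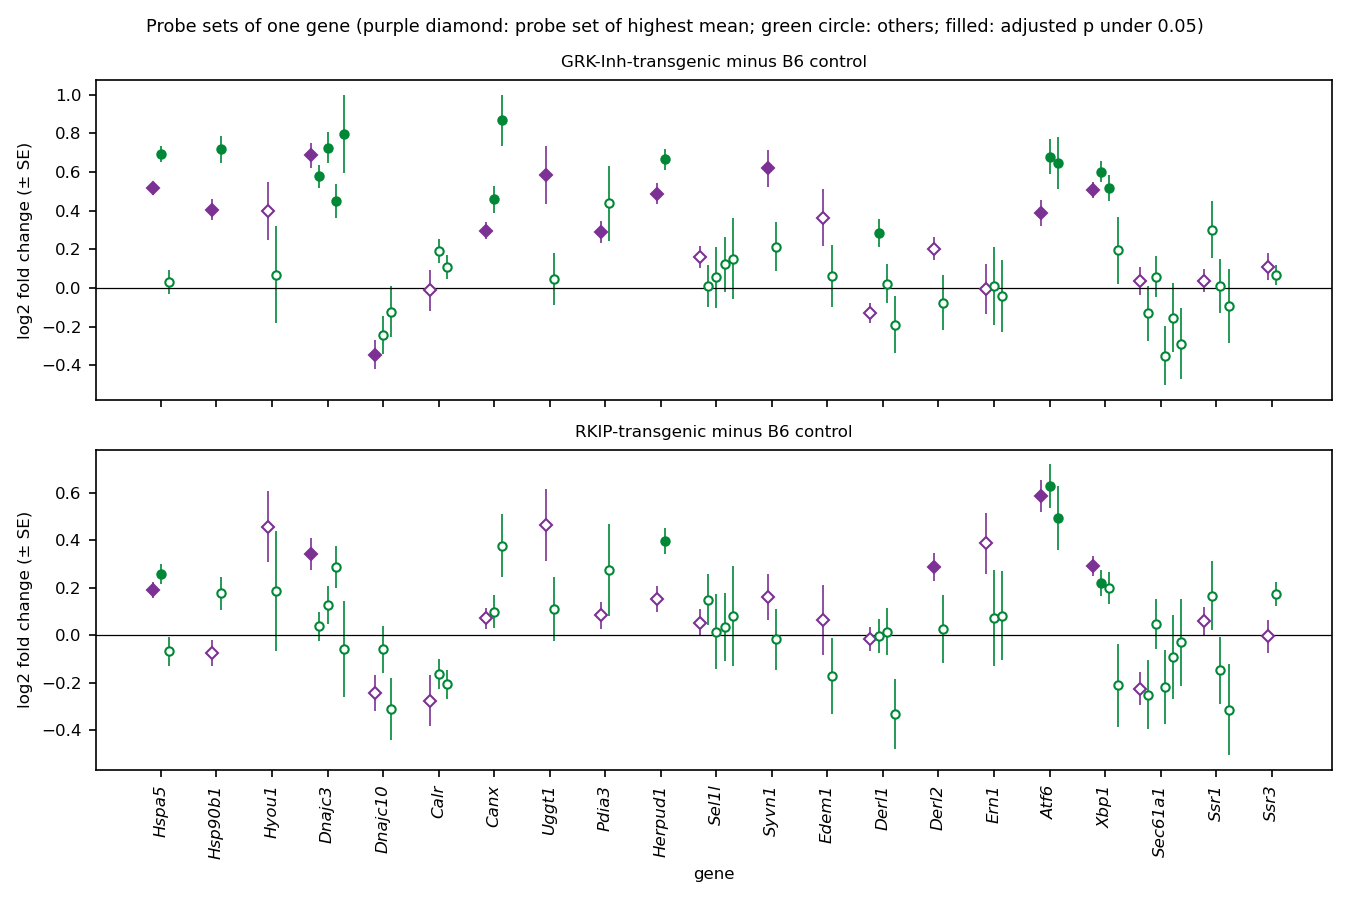
Log2 fold changes against control (y axis, bars ± SE) of every tested probe set of the 21 genes with more than 1 (x axis), in a limma fit over all probe sets; purple diamonds are the probe set of highest mean, green circles the others, and filled symbols had an adjusted p under 0.05. The upper panel (GRK-Inh-transgenic) shows filled symbols for every tested probe set of Dnajc3, Canx and Atf6 and 3 of 4 of Xbp1, while in the lower panel (RKIP-transgenic) the Dnajc3 probe sets spread from -0.06 to 0.34.

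Of the wider ER pathway, 99 further genes in 5 lists were examined, of which 90 were tested. In GRK-Inh-transgenic hearts 14 rose and 5 fell, in RKIP-transgenic hearts 14 rose and 4 fell, and between the lines 2 were higher and 4 lower in RKIP-transgenic hearts. As shares these were 15.6% higher in each line, beside the 5.86% and 5.32% of all tested genes given above. Falls were 5.56% in GRK-Inh-transgenic and 4.44% in RKIP-transgenic hearts, against 7.27% and 5.51% of all tested genes. Between the lines 2.22% were higher and 4.44% lower in RKIP-transgenic hearts, against 4.47% and 4.35%. Apart from the rises, these shares were near or below those of all tested genes. The count called in RKIP-transgenic hearts ranged from 7 to 17 on leaving out single arrays, with 9, 11 and 7 without RKIP-transgenic replicate 1, RKIP-transgenic replicate 2 and B6 control replicate 2. In GRK-Inh-transgenic hearts it was 12, 11 and 12 without GRK-Inh-transgenic replicate 1, GRK-Inh-transgenic replicate 2 and B6 control replicate 2.

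The PERK and ATF4 arm raises stress transcription factors and their targets. Of 11 tested genes listed for this arm, not all of them outputs, 4 rose and 1 fell in GRK-Inh-transgenic hearts. In RKIP-transgenic hearts 2 rose and 1 fell, and 1 was higher and 3 lower in RKIP-transgenic relative to GRK-Inh-transgenic hearts. Ddit4, an inhibitor of mTORC1 signalling, gave 1136 and 1107 in GRK-Inh-transgenic, 573 and 559 in RKIP-transgenic and 487 and 491 in control hearts. It rose by 1.12 ± 0.076 in GRK-Inh-transgenic hearts (adjusted p = 5.6e-06) and was lower in RKIP-transgenic relative to GRK-Inh-transgenic hearts (-0.93 ± 0.076, adjusted p = 3.3e-05). The transcription factors Cebpb (0.85 ± 0.057), Atf3 (0.82 ± 0.141) and Ddit3, also known as CHOP (0.59 ± 0.085), rose in GRK-Inh-transgenic hearts. Cebpb (0.38 ± 0.057) and Ddit3 (0.31 ± 0.085) also rose in RKIP-transgenic hearts. Chac1, a glutathione-degrading enzyme that is a target of ATF4, went the other way: it fell by 1.33 ± 0.199 on the log2 scale in GRK-Inh-transgenic hearts (adjusted p = 0.00134), from 259 and 262 in controls to 48.8 and 104. Ppp1r15b, a phosphatase subunit that reverses PERK signalling, fell by 0.29 ± 0.075 on the log2 scale in RKIP-transgenic hearts (adjusted p = 0.0328).

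Of 17 tested further regulators, 6 rose and 1 fell in GRK-Inh-transgenic hearts and 4 rose and 1 fell in RKIP-transgenic hearts. Ddrgk1, a component of the ER UFMylation system, rose in both (0.42 ± 0.066 and 0.57 ± 0.066), as did Wfs1, an ER membrane protein of the stress response (0.40 ± 0.074 and 0.34 ± 0.074), and Map3k5, the kinase ASK1 (0.39 ± 0.102 and 0.36 ± 0.102). Cdk5rap3, another component of UFMylation, rose in GRK-Inh-transgenic hearts (0.37 ± 0.105). Mbtps1, the protease that cleaves ATF6, was the gene that fell in each line (-0.27 ± 0.078 and -0.33 ± 0.078).

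Of 20 other folding enzymes tested, 1 rose and 3 fell in GRK-Inh-transgenic hearts, and 2 rose and 2 fell in RKIP-transgenic hearts. In GRK-Inh-transgenic hearts 5% of these and 5.26% of the further degradation genes below rose, near the 5.86% of all tested genes. In RKIP-transgenic hearts the shares that rose were 10% and 15.8%, against 5.32%. The prolyl isomerase Fkbp2 rose in both (0.35 ± 0.075 and 0.39 ± 0.075), and Dnajc1 rose in RKIP-transgenic hearts (0.28 ± 0.077). The cyclophilins Ppic (-0.90 ± 0.082 and -0.81 ± 0.082) and Ppib (-0.25 ± 0.047 and -0.35 ± 0.047), the latter a folding enzyme of collagen, fell in both lines, beside the fibroblast marker sums given above. Fkbp7 fell in GRK-Inh-transgenic hearts (-0.29 ± 0.075). Of 19 further degradation genes, Selenos rose in both lines (0.40 ± 0.054 and 0.45 ± 0.054), and Ubxn4 and Selenok rose in RKIP-transgenic hearts (0.37 ± 0.070 and 0.27 ± 0.071). Among 23 further genes of the translocon, signal peptidase and oligosaccharyltransferase, Spcs3 rose in both (0.39 ± 0.065 and 0.37 ± 0.065), Sec63 and Spcs2 rose in RKIP-transgenic hearts (0.47 ± 0.087 and 0.32 ± 0.086), and Rpn1 rose in GRK-Inh-transgenic hearts (0.21 ± 0.052). Between the lines Rpn1 was lower (-0.33 ± 0.052) and Ssr4 higher (0.19 ± 0.051) in RKIP-transgenic hearts.

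**Figure D4:**
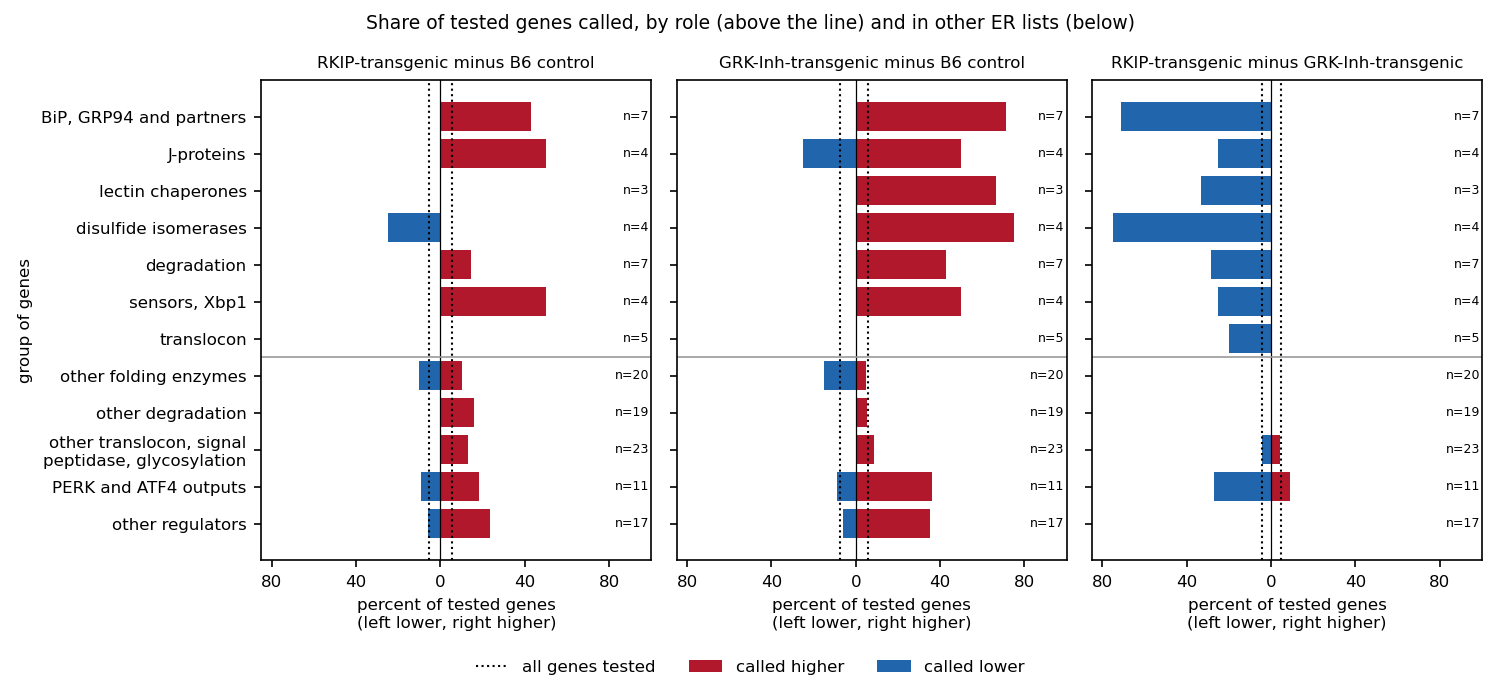
Percent of tested genes called (x axis, red to the right for higher, blue to the left for lower) in the 7 roles above the grey line and the 5 further lists below it (y axis, n tested at the right), with dotted lines at the percent over all tested genes. In the GRK-Inh-transgenic panel 5 of 7 BiP, GRP94 and partner genes and 3 of 4 disulfide isomerases were higher and 0 of the 5 translocon members; the groups hold 3 to 23 genes, so 1 gene moves a bar by much in the small ones.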

How the data were processed

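Mouse heart RNA was labelled and hybridised to 6 Affymetrix arrays, per the labels' protocols. The authors deposited 1 intensity per probe set, a linear signal made with GCOS per the submitters' processing notes (version not given), for 45101 probe sets. All arrays share a 2% trimmed mean of 300.002. The platform annotation gave a single symbol to 34945 probe sets. Signals were analysed as log2(signal + 50). Genes with a mean log2 value of at least 6.65, the median over non-control probe sets, were tested. One limma model (limma 3.58.1 in R 4.3.3) covered the 6 arrays, with group means, a variance trend, 3 residual and 7.60 prior degrees of freedom, two-sided tests and Benjamini-Hochberg adjustment in each of 3 comparisons. Precision is limited by the number of arrays (median SE 0.115 on the log2 scale). The procedure was tested on simulated data. With noise drawn from each gene's own SD it recovered fewer changed genes than the test required, and the simulation was then changed to draw noise from limma's moderated SDs, which it passed; how many changed genes the fit finds thus depends on the noise assumed. Array values are given for members called with an absolute log2 fold change of at least 0.5, for Hspa5, Hsp90b1, Xbp1, Ern1, Eif2ak3 and Atf6, and for some others chosen after their values were seen. Up to 4 called genes of each further list and comparison are named. Members and lists were chosen with earlier results of these data known. Alternatives were other normalizations, offsets (16, 200), filters, probe set rules, variance models, thresholds, a replicate block, and each array left out in turn. Promoter windows are from RefSeq (GRCm38.p6). Python 3.11.15 and matplotlib 3.10.9 drew the figures.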

Additional observations from a re-analysis of the deposited data

Results flagged for a closer look

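Pdia4 was marked because its difference ran in opposite directions in the 2 lines against the same controls, higher in GRK-Inh-transgenic and lower in RKIP-transgenic hearts, and because the direct test between the lines was called. RKIP-transgenic minus GRK-Inh-transgenic, the log2 fold change was -0.94 ± 0.114 (limma adjusted p = 0.00063). It was -0.30 (adjusted p = 0.243) with the mean of all probe sets of a gene, which averages in a second Pdia4 probe set with signals of 2.11 to 32.6.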

How the results depend on the processing

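Counts of called members depended most on the variance model. With a variance without trend the members higher fell from 17 to 11 in GRK-Inh-transgenic and from 8 to 3 in RKIP-transgenic hearts, those lower from 1 to 0 in each, and those lower between the lines from 14 to 4; the cause was not tested. The further pathway genes called went from 19 to 11, from 18 to 3, and from 6 to 3 between the lines. With the mean of all probe sets of a gene, 5 members were higher in RKIP-transgenic hearts, 0 were lower in either line, and the medians were 0.21 in GRK-Inh-transgenic hearts and -0.12 between the lines. Sec61a1 between the lines reversed to 0.011 there. Arrays shifted to one median gave medians of 0.34 and -0.20. No member was lower in RKIP-transgenic hearts without a filter, and 3 were with a filter at the 75th percentile. At an adjusted p under 0.01, 0 members were lower in each line and 9 and 11 further pathway genes were called in RKIP-transgenic and GRK-Inh-transgenic hearts. At 0.1, 3 members were lower in RKIP-transgenic hearts, and between the lines 1 was higher and 10 further genes were called.

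Leaving out single arrays gave 6 to 8 members higher and 0 to 2 lower in RKIP-transgenic hearts (median 0.059 to 0.12), 13 to 16 higher and 0 to 1 lower in GRK-Inh-transgenic hearts (0.22 to 0.35), and 8 to 12 lower between the lines (-0.20 to -0.15), 8 without GRK-Inh-transgenic replicate 1. Further pathway genes called were 7 to 17, 11 to 18 and 4 to 5. Where that left 1 array in a group, it was assumed to vary like the others. No shared effect of same-numbered arrays was seen (correlations of deviations -0.030, -0.035 and 0.026). With so few arrays this cannot show whether samples were paired, and the labels give the numbers no meaning. With the replicate block, 10 and 17 members were higher in RKIP-transgenic and GRK-Inh-transgenic hearts, and between the lines 13 were lower and 1, Ern1, higher (adjusted p = 0.0423). Over the alternative fits (17 for each called gene, but 16 for Sdf2l1, which the filter at the 75th percentile removed), 10 of 18 calls were kept in every fit in GRK-Inh-transgenic hearts, 3 of 9 in RKIP-transgenic hearts (Manf, Dnajb9 and Atf6) and 3 of 14 between the lines (Manf, Creld2 and Sdf2l1). Manf, Creld2, Sdf2l1 and Dnajb9 each have a single probe set, so the mean of all probe sets could not change their values. Among uncalled members the sign changed in some fit for 4, 10 and 8.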
